A study of Mus musculus with 16 samples.

Results

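The IL-1 and IL-36 family cytokines considered here are 10 mouse genes taken by symbol: Il1a, Il1b and Il1rn, the IL-36 genes Il1f5, Il1f6, Il1f8 and Il1f9 (also named Il36rn, Il36a, Il36b and Il36g), the IL-36 receptor gene Il1rl2, and Il18 and Il33. All 10 were found among the 55359 gene IDs of the count files, and all 10 were among the 17531 genes that passed the filter on low counts. They were followed in RNA-seq libraries of whole dorsal skin from male mice of 8 weeks, with 4 libraries in each of 4 groups. KO UVB and KO control were skin of mice labelled as knockouts of both TNF receptor genes, Tnfrsf1a and Tnfrsf1b, taken after a treatment labelled 3xUVB and without UVB. WT UVB and WT control were the same 2 treatments in wild-type skin. All groups were labelled telogen, when hair follicles rest. The sources used here do not give the strain, the UVB dose, the time of sampling or which piece of each receptor gene the knockout removes. By its title, the series asks what missing Tnf signalling does to melanocyte stem cells of UVB-exposed skin.

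IL-1 family cytokines are alarm signals of barrier tissues, and epidermal keratinocytes make many of them. IL-1α (Il1a) and IL-1β (Il1b) activate the IL-1 receptor, which the receptor antagonist (Il1rn) occupies without signalling. IL-36α, IL-36β and IL-36γ (Il1f6, Il1f8 and Il1f9) activate the receptor encoded by Il1rl2, and the product of Il1f5 blocks it. IL-18 and IL-33 act on receptors of their own. IL-1β and IL-18 are made as precursors that caspase-1 cuts inside inflammasomes, so transcript counts describe the supply of message and not the active cytokines.

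Promoter sequences were matched for 9 members, as 13 start sites, in RefSeq's table for GRCm38.p6 (250 bases before to 50 after each start). The 4 below are shown because they hold the motif matches found in the chromosome 2 members, whose read counts are followed through the rest of the text. Each gives the 250 bases before the start site, 5′ to 3′ on the gene's strand, and capitals mark matches to AP-1 (TGANTCA, searched on both strands) or to a TATA box (TATAAA, searched on the gene's strand). Il1a lies at chr2:129309973-129310222 on the minus strand, Il1b at chr2:129371140-129371389 on the minus strand, Il1rn (the first of its start sites) at chr2:24336610-24336859 on the plus strand, and Il1f8 at chr2:24152922-24153171 on the plus strand.
Il1a: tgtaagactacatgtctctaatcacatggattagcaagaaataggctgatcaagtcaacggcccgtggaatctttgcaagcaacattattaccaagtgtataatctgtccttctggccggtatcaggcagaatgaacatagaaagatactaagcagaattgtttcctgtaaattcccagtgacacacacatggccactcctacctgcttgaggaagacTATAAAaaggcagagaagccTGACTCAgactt
Il1b: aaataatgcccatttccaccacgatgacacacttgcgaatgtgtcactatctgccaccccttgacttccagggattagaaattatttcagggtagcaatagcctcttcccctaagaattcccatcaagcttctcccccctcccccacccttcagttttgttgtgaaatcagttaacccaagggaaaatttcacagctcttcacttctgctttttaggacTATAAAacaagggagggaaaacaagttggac
Il1rn: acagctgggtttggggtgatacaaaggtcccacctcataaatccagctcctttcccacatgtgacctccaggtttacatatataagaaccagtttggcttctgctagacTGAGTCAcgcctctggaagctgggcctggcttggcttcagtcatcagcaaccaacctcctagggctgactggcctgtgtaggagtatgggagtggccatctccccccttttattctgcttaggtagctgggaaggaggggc
Il1f8: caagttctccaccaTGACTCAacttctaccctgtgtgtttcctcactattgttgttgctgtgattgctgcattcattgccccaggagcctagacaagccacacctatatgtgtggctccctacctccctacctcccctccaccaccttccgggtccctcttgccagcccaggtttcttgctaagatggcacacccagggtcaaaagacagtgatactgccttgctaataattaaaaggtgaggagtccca
The AP-1 motif ended 6 bases before the start of Il1a, 135 before that of Il1rn and 230 before that of Il1f8, and it was found in 3 of the members' 13 promoters. It was found in 7.81% of the 32851 promoters of the table. The TATA motif lay 27 bases before the start of Il1a and 26 before that of Il1b, and Il33 held it before 2 starts, so that 4 of the 13 promoters held it. It was found in 8.32% of all promoters of the same 300 bases. The NF-kB motif, searched on both strands, was found in no member and in 8.46% of all promoters. No 2 of these matches overlapped. A match describes these letters in this window and was not tested as a binding site.

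Libraries held 15644375 to 23200649 reads in genes. Both targeted transcripts were lower in KO skin and still counted: Tnfrsf1a averaged 95.8 ± 6.78 CPM in KO UVB and 151 ± 8.87 CPM in WT UVB skin, and Tnfrsf1b averaged 20.1 ± 5.54 CPM in KO UVB and 40.9 ± 7.99 CPM in WT UVB skin (SD, n = 4 each). With UVB the difference was -0.66 ± 0.07 for Tnfrsf1a (adjusted p = 0.000152) and -1.02 ± 0.21 for Tnfrsf1b (adjusted p = 0.0315, edgeR), and the Tnfrsf1b call ended without WT UVB 1, 3 or 4 or KO UVB 2 (adjusted p from 0.0594 to 0.0892). CPM here are read counts scaled to a common library size of 1000000 reads. Keratinocyte and dermal fibroblast markers were present in every library of this skin, with summed keratinocyte markers at 16245 to 54951 CPM in KO UVB, 7629 to 12352 in KO control, 24829 to 32566 in WT UVB and 5935 to 9170 in WT control skin. The 15 measured anagen hair markers summed to 88.2 to 325 CPM in KO control and to 1222 to 3101 CPM in WT control skin. Of them 12 were called lower in KO against WT control skin, and all 15 were called lower after UVB in each genotype. The groups thus differed in markers of growing hair although all were labelled telogen. The part of this difference in the member changes was not tested. Library KO UVB 3 stood apart with 99.8 CPM of summed neutrophil markers, against 7.03 to 28.5 CPM in the other 15 libraries, and KO UVB 4 had the lowest keratinocyte sum of the KO UVB group. Member changes that KO UVB 3 decides are also given without it. The labels do not tell whether the 4 libraries of a group are 4 mice, so the p-values below measure the spread between libraries, part of which may be technical.

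UVB was accompanied by higher counts of most members in both genotypes. A gene was called at an adjusted p under 0.05 from edgeR's quasi-likelihood test, adjusted over all genes tested. In KO skin 9 of the 10 members were called, all higher, where 32.3% of all genes tested were called and 17.2% were called higher. In WT skin 7 of the 10 were called, all higher, where 18.8% of all genes were called and 10.2% were called higher. The members' median log2 fold change was 1.69 in KO and 1.41 in WT skin, beside -0.02 and -0.03 over all genes tested. Every UVB library lay on the same side of every control library for 7 members in KO skin (25.1% of all genes) and for 8 members in WT skin (28.2% of all genes).

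**Figure D1:**
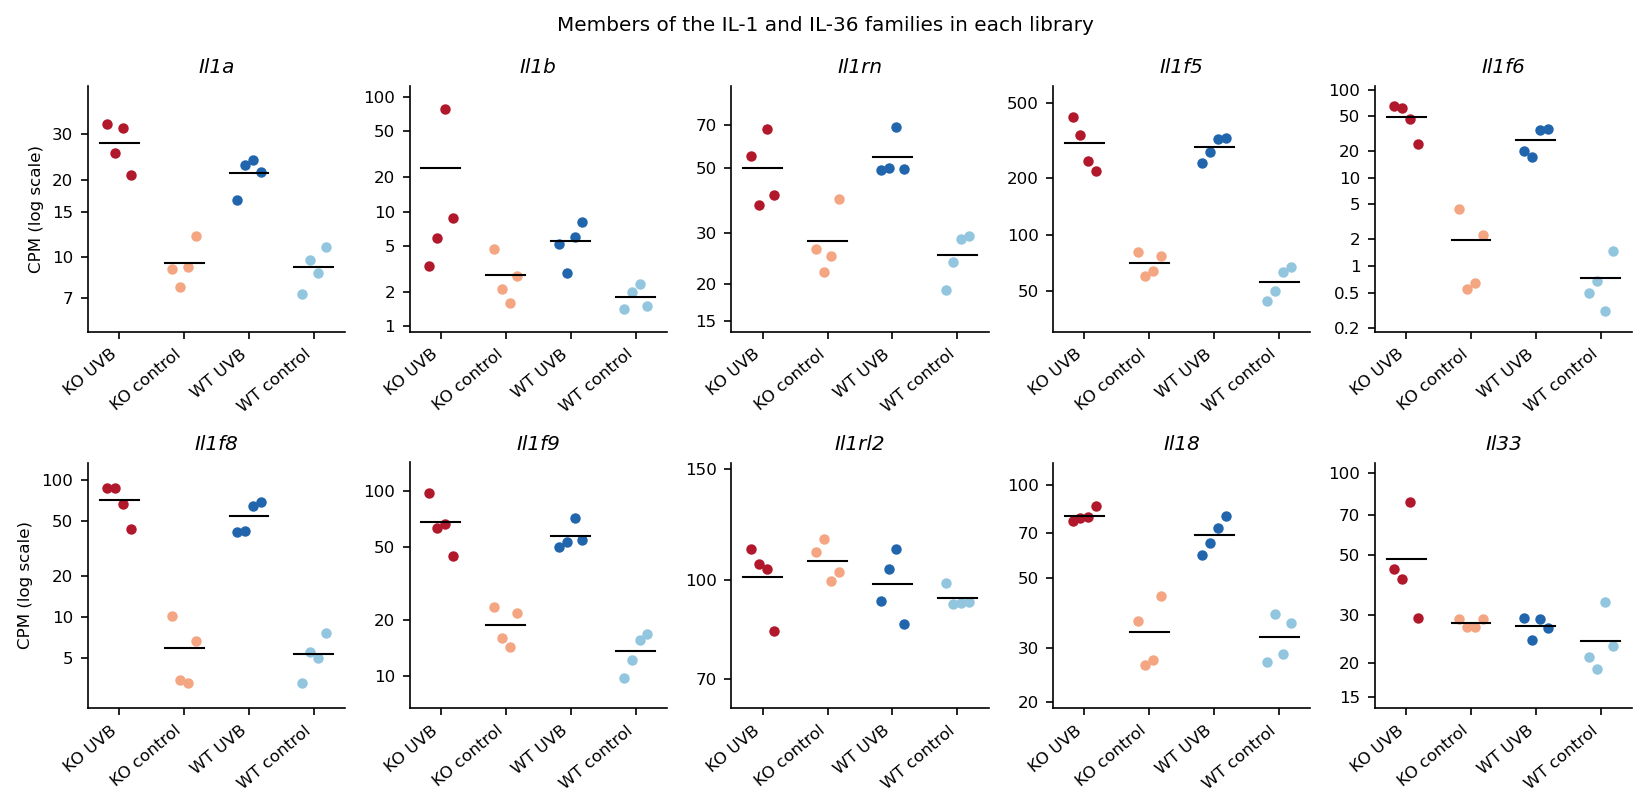
CPM (log axis) of the 10 members, with a point for each library, a line at the group mean, and the groups KO UVB, KO control, WT UVB and WT control from left to right. In the 3 IL-36 agonist panels every UVB library lies above every control library, and in the Il1b panel a single KO UVB library, at 78.2 CPM, lies far above the rest.

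Of the members, the IL-36 agonists Il1f6 and Il1f8 had the steepest changes in both genotypes. Il1f6 (ENSMUSG00000026984.5), which encodes IL-36α, had 64.7, 61.1, 46.2 and 24.0 CPM in KO UVB libraries 1 to 4 against 4.47, 0.551, 0.639 and 2.22 CPM in KO control libraries. In WT skin it had 20.3, 17.3, 35.1 and 35.5 CPM after UVB against 0.492, 0.682, 0.306 and 1.48 CPM in controls. Il1f6 was low in unexposed skin, with as few as 7 reads in a library, and the UVB and control libraries were apart in both genotypes. It rose by 4.64 ± 0.56 on the log2 scale in KO (adjusted p = 6.11e-05) and by 5.18 ± 0.61 in WT skin (adjusted p = 6.58e-05, edgeR, SE).

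Il1f8 (ENSMUSG00000026985.2), which encodes IL-36β, had 87.0, 87.3, 67.1 and 43.4 CPM in KO UVB against 10.1, 3.48, 3.30 and 6.71 CPM in KO control libraries. It had 41.7, 42.6, 64.7 and 68.4 CPM in WT UVB against 3.31, 5.58, 5.03 and 7.66 CPM in WT control libraries. The lowest UVB library, at 41.7 CPM, was far above the highest control library, at 10.1 CPM. The change was 3.59 ± 0.36 in KO (adjusted p = 1.65e-05) and 3.33 ± 0.36 in WT skin (adjusted p = 3.1e-05, edgeR).

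Il1f9 (ENSMUSG00000044103.5), which encodes IL-36γ, was the agonist with the highest counts in unexposed skin. It had 98.0, 63.2, 66.8 and 44.7 CPM in KO UVB against 23.6, 16, 14.4 and 21.9 CPM in KO control libraries, and 50, 53.4, 71.6 and 54.6 CPM in WT UVB against 9.79, 12.3, 15.6 and 17 CPM in WT control libraries. The groups did not overlap in either genotype. It rose by 1.85 ± 0.23 in KO (adjusted p = 8.05e-05) and by 2.07 ± 0.24 in WT skin (adjusted p = 4.82e-05, edgeR).

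Il1f5 (ENSMUSG00000026983.11), which encodes the IL-36 receptor antagonist, had the highest CPM of all members after UVB. It had 423, 340, 246 and 219 CPM in KO UVB against 81.3, 60.2, 64.2 and 76.8 CPM in KO control libraries, and 240, 276, 324 and 325 CPM in WT UVB against 44.5, 50, 63.8 and 67.5 CPM in WT control libraries. No UVB library fell within the control range. The change was 2.12 ± 0.20 in KO (adjusted p = 9.5e-06) and 2.37 ± 0.20 in WT skin (adjusted p = 5.81e-06, edgeR). The order of the KO UVB libraries in Il1f5, highest in library 1 and lowest in library 4, was that of their summed keratinocyte markers, at 54951, 34038, 24481 and 16245 CPM. The order was not shared in WT UVB skin, where library 4 had the highest Il1f5 and a sum of 25700 CPM, below libraries 2 and 3. In whole skin, fewer cells of a type and less RNA per cell cannot be told apart. Of the 8 keratinocyte markers 6 were called higher after UVB in each genotype, where 17.2% of all genes in KO and 10.2% in WT skin were. The median log2 fold change of the 8 was 1.76 in KO and 1.68 in WT skin. Dsg3 (0.40 in KO, 0.34 in WT skin) and Trp63 (-0.39 and -0.14) were not called. In UVB skin Krt1 and Krt10 made up most of the sums, as with 18195 and 22376 of 54951 CPM in KO UVB 1. Krt2 was called lower in KO UVB than in WT UVB skin. The part of these markers in the rise of the members was not tested.

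Il1rl2 (ENSMUSG00000070942.9), the receptor through which these ligands act, stayed within a narrow band. It had 112, 106, 104 and 83.1 CPM in KO UVB against 111, 116, 99.7 and 103 CPM in KO control libraries, and 92.7, 104, 112 and 85.4 CPM in WT UVB against 99.0, 91.9, 92.2 and 92.4 CPM in WT control libraries. The UVB and control libraries overlapped in both genotypes. The log2 fold change was -0.08 ± 0.10 in KO (adjusted p = 0.546) and 0.07 ± 0.10 in WT skin (adjusted p = 0.660, edgeR), and 2 SE around these values span -0.28 to 0.12 in KO and -0.13 to 0.27 in WT skin.

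Among the IL-1 genes, Il1a and Il1rn rose after UVB in both genotypes. Il1a (ENSMUSG00000027399.2) had 32.8, 25.3, 31.6 and 20.8 CPM in KO UVB against 9.04, 7.67, 9.16 and 12.1 CPM in KO control libraries, and 16.7, 22.7, 23.8 and 21.3 CPM in WT UVB against 7.24, 9.79, 8.74 and 11 CPM in WT control libraries. The groups were apart in both genotypes, and the change was 1.54 ± 0.18 in KO (adjusted p = 3.86e-05) and 1.20 ± 0.18 in WT skin (adjusted p = 0.000282, edgeR). Il1rn (ENSMUSG00000026981.16) had 55.1, 37.5, 67.8 and 40.5 CPM in KO UVB against 26.4, 22.0, 25.0 and 39.3 CPM in KO control libraries, and 49.1, 50.1, 68.9 and 49.6 CPM in WT UVB against 19.1, 23.9, 28.5 and 29.4 CPM in WT control libraries. KO UVB and KO control libraries overlapped in Il1rn, while WT UVB and WT control libraries did not. It rose by 0.84 ± 0.21 in KO (adjusted p = 0.00763) and by 1.11 ± 0.21 in WT skin (adjusted p = 0.00223, edgeR).

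Il1b (ENSMUSG00000027398.14) was the most uneven member. It had 3.38, 5.88, 78.2 and 8.79 CPM in KO UVB against 4.71, 2.12, 1.60 and 2.77 CPM in KO control libraries, and 5.26, 2.94, 5.96 and 8.11 CPM in WT UVB against 1.43, 1.98, 2.32 and 1.52 CPM in WT control libraries. Library KO UVB 3, with 1693 reads, lay far above the others, KO UVB 1 lay within the KO control range, and the WT groups did not overlap. The change of 3.10 ± 0.81 in KO skin was called (adjusted p = 0.00930), and that of 1.61 ± 0.83 in WT skin was not (adjusted p = 0.189, edgeR). Without KO UVB 3 the Il1b change in KO skin was 1.11 ± 0.39 (adjusted p = 0.0462), and without KO UVB 3 and 4 it was 0.72 ± 0.41 and no longer called (adjusted p = 0.199). In a fit of WT UVB and WT control libraries alone, whose spread was not shared with the KO libraries, the Il1b change was 1.63 ± 0.30 and called (adjusted p = 0.00334). In the same kind of fit for KO skin it was 3.12 ± 1.01 and not called (adjusted p = 0.0563).

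The library with the highest Il1b, KO UVB 3, also had the highest sum of neutrophil markers, and the other libraries did not share an order. Summed over 9 markers they were at 19.8, 28.5, 99.8 and 20.3 CPM in KO UVB libraries 1 to 4, at 7.32 to 16 CPM in KO control, at 11.7 to 27.1 CPM in WT UVB and at 7.03 to 13.8 CPM in WT control libraries. WT UVB 4, with the highest Il1b of its group (8.11 CPM), had its lowest sum (11.7 CPM). Mpo weighed on this order, at 10.3, 13.4, 5.52 and 0.111 CPM in WT UVB libraries 1 to 4. In KO UVB 3 the sum was mostly Csf3r (52.9 CPM) and Cxcr2 (31.7 CPM). Mpo (7.94 CPM), Mmp8 (3.37 CPM), Retnlg (2.54 CPM) and Ly6g were also highest there among the KO UVB libraries. Camp, Elane and Ltf were not, and Camp (0.831 CPM) was below its level in KO UVB 2 and 4. Of the defining marker Ly6g, 1 to 5 reads were counted per KO UVB library, with the 5 in KO UVB 3. It had 0 to 1 reads per KO control library and 0 in all WT libraries. Of the 6 neutrophil markers tested, 6 were called higher after UVB in KO and 3 in WT skin. The count in KO skin fell to 2 without KO UVB 3, to 3 without KO control 2, and to 2 without KO control 3 or 4. Over all genes 17.2% were called higher in KO and 10.2% in WT skin. Between KO UVB and WT UVB skin edgeR called 0 of the 6 neutrophil markers, and 4 had an unadjusted p under 0.05. DESeq2 called 3 of them there and limma voom 1. Summed monocyte and macrophage markers were at 1509, 2538, 3095 and 2644 CPM in KO UVB libraries against 1401 to 2563 CPM in KO control libraries, and at 1182 to 1822 CPM in WT UVB against 1585 to 2682 CPM in WT control libraries. EdgeR called 0 of 9 in any comparison. After UVB in KO skin 2 had an unadjusted p under 0.05, DESeq2 called 2 and limma voom 5, and in WT skin 4 had such a p, DESeq2 called 0 and limma voom 1. Between KO UVB and WT UVB skin 7 of the 9 had an unadjusted p under 0.05, and DESeq2 and limma voom called 4 each. In this comparison 16.3% of all genes had such a p, and DESeq2 called 3.75% and limma voom 6.24%. The part of these cells in the Il1b values was not tested.

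**Figure D2:**
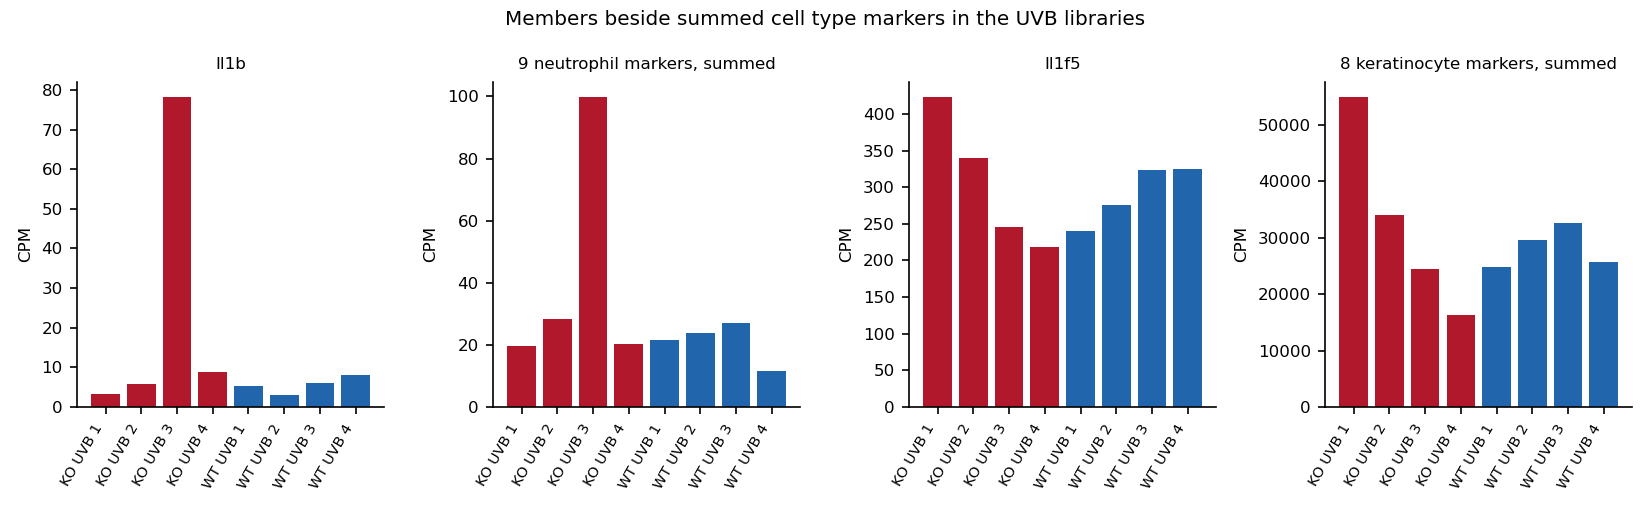
CPM (linear axes from 0) in the 4 KO UVB and 4 WT UVB libraries of Il1b, of 9 summed neutrophil markers, of Il1f5 and of 8 summed keratinocyte markers, with a bar for each library. KO UVB 3 is the highest bar for Il1b and for the neutrophil sum, and the KO UVB bars for Il1f5 and for the keratinocyte sum descend in the same order of libraries, which the WT UVB bars do not.

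Il18 and Il33 differed in their response. Il18 (ENSMUSG00000039217.14) had 76.2, 77.9, 78.5 and 85.5 CPM in KO UVB against 36.5, 26.4, 27.4 and 43.9 CPM in KO control libraries, and 59.3, 64.9, 72.8 and 79.5 CPM in WT UVB against 27.0, 38.3, 28.6 and 35.9 CPM in WT control libraries. Every UVB library lay above every control library, and Il18 rose by 1.25 ± 0.15 in KO (adjusted p = 6.41e-05) and by 1.09 ± 0.15 in WT skin (adjusted p = 0.000206, edgeR). Il33 (ENSMUSG00000024810.17), whose product is stored in nuclei and released by damaged cells, had 44.4, 40.7, 78.2 and 29.4 CPM in KO UVB against 29.0, 27.1, 27.1 and 29.2 CPM in KO control libraries. In WT skin it had 29.4, 24.4, 29.1 and 26.9 CPM after UVB against 21.1, 19.1, 33.7 and 23.1 CPM in controls, and these groups overlapped. The Il33 change was 0.78 ± 0.23 and called in KO (adjusted p = 0.0180), and 0.18 ± 0.23 and not called in WT skin (adjusted p = 0.631, edgeR). Without KO UVB 3, the library with the highest Il33, the change in KO skin was 0.45 ± 0.17 and missed the threshold (adjusted p = 0.0580).

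**Figure D3:**
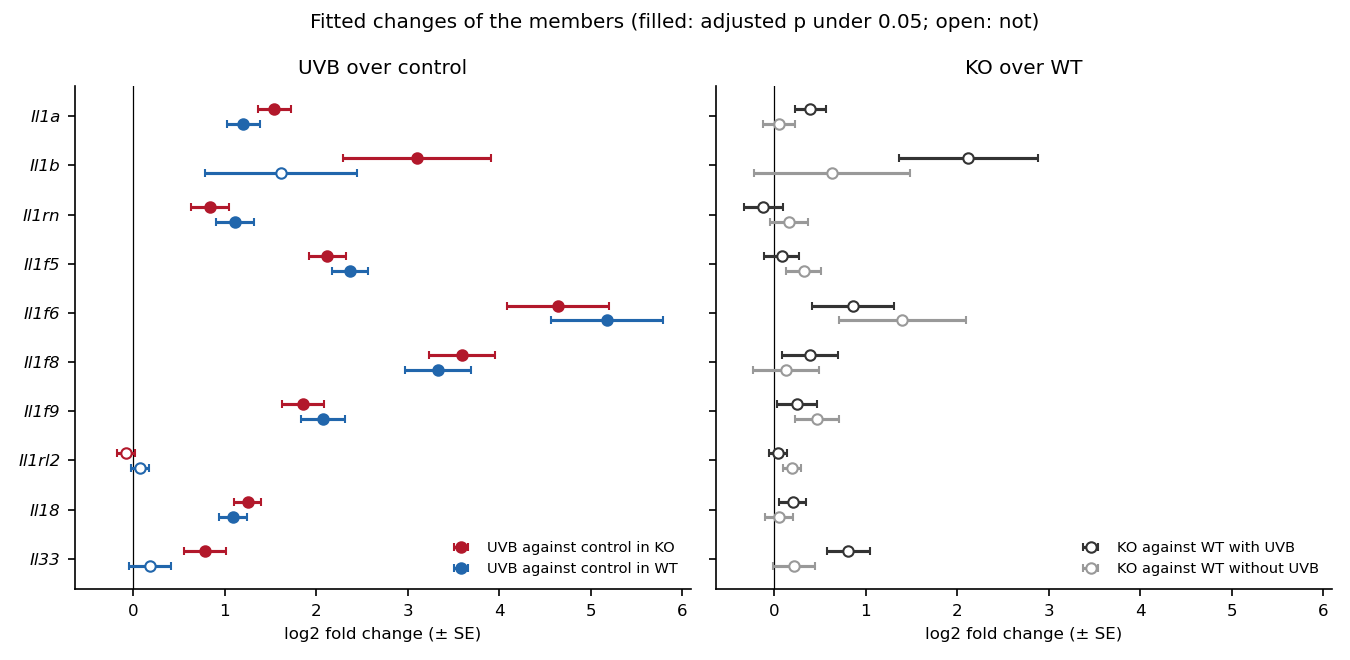
Log2 fold changes ± SE from edgeR of the 10 members, UVB over control at left (KO above WT) and KO over WT at right (with UVB above without UVB), with filled points where the adjusted p was under 0.05. The 3 IL-36 agonists and Il1f5 lie farthest right among the called points of WT skin, Il1rl2 lies near 0, and no point at right is filled.

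No member was called between genotypes. With UVB, KO against WT skin gave 0 called members where 0.856% of all genes were called, and the members' median was 0.32 beside 0.01 over all genes. Unadjusted p-values under 0.05 were given to 3 members (16.3% of all genes): Il33 at 0.81 ± 0.23 (adjusted p = 0.104), Il1b at 2.12 ± 0.76 (adjusted p = 0.183) and Il1a at 0.39 ± 0.17 (adjusted p = 0.278, edgeR). No member had KO UVB and WT UVB libraries that did not overlap, which 8.16% of all genes did. DESeq2 called 1 member, Il33 at 0.81 ± 0.24 (adjusted p = 0.0244), where it called 3.75% of all genes. Limma voom with sample quality weights called 2, Il33 at 0.68 ± 0.17 (adjusted p = 0.0271) and Il1f6 at 1.04 ± 0.27 (adjusted p = 0.0326), where it called 6.24% of all genes. Without KO UVB 4 the edgeR fit called Il33 too, at 0.99 ± 0.20 (adjusted p = 0.0177), and without KO UVB 3 Il33 was at 0.47 ± 0.17 (adjusted p = 0.264). Without KO UVB 3 the Il1b difference was 0.12 ± 0.38 (adjusted p = 0.928), and without KO UVB 3 and 4 it was -0.27 ± 0.41 (adjusted p = 0.805).

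Without UVB, KO against WT skin again gave 0 called members, where edgeR called 1.69% of all genes, DESeq2 2.58% and limma voom 3.37%, and neither of these tools called a member. At an unadjusted p under 0.05 edgeR gave 0 members and 10.9% of all genes. The members' median was 0.20 beside 0.00 over all genes. Only Il1rl2 had KO control and WT control libraries that did not overlap, as 7.68% of all genes did, with a difference of 0.19 ± 0.10 (adjusted p = 0.509, edgeR). The widest difference was that of Il1f6, at 1.40 ± 0.69 (adjusted p = 0.491), in libraries with 7 to 92 reads of it. Without KO control 1 this Il1f6 difference was 0.57 ± 0.70 (adjusted p = 0.840), and over the alternatives it ran from 0.44 to 2.02.

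The interaction, the UVB change in KO minus that in WT skin, was called for 0 members by edgeR, where 0.0228% of all genes were called, and for 0 at an unadjusted p under 0.05, where 12.8% of all genes passed. DESeq2 called 0 members and 1.21% of all genes, and limma voom 0 members and 2.50% of all genes. The members' median was 0.00 beside 0.02 over all genes. The interaction was 0.60 ± 0.33 for Il33 (adjusted p = 0.455), 1.49 ± 1.14 for Il1b (adjusted p = 0.610) and 0.34 ± 0.25 for Il1a (adjusted p = 0.589). For Il1b it turned its sign without KO UVB 3 (-0.52 ± 0.54, adjusted p = 0.785) and without KO UVB 3 and 4 (-0.89 ± 0.55, adjusted p = 0.497). For Il33 it was 0.26 ± 0.23 without KO UVB 3 (adjusted p = 0.738) and 0.40 ± 0.31 without WT control 3 (adjusted p = 0.627). It was -0.54 ± 0.82 for Il1f6, 0.26 ± 0.48 for Il1f8 and -0.22 ± 0.32 for Il1f9, so that 2 SE span -2.18 to 1.10, -0.70 to 1.22 and -0.86 to 0.42 on the log2 scale. The Il1f6 value turned its sign without KO control 1 (0.29 ± 0.81, adjusted p = 0.893) and with limma voom (0.60 ± 0.98, adjusted p = 0.758), and over all alternatives Il1f8 ran from 0.04 to 0.88 and Il1f9 from -0.46 to 0.03. Il1b and Il33 were called after UVB in KO and not in WT skin, and with these interaction values neither response was shown to differ between the genotypes.

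Reads of antagonists were set against reads of agonists in each library, as a description with no test. These reads are not scaled for exon length. It is 5.54 kilobases for Il1rn, 1.97 for Il1a, 1.91 for Il1b, 4.49 for Il1f5 and 0.883 to 1.65 for the IL-36 agonists. The ratios therefore compare libraries, and their size does not tell whether antagonist or agonist message was in excess. Reads of Il1rn per read of Il1a plus Il1b were 1.52, 1.20, 0.618 and 1.37 in KO UVB libraries 1 to 4, 1.92 to 2.63 in KO control, 1.68 to 2.31 in WT UVB and 2.03 to 2.58 in WT control libraries. All 4 KO UVB libraries were below all other libraries. With Il1b left out of the denominator, Il1rn per Il1a read was 1.48 to 2.15 in KO UVB and 2.21 to 2.93 in WT UVB libraries. Library 3 then no longer set the lowest value, and the ranges nearly met but did not overlap. How often ratios of other genes do so was not counted, and neither Il1rn nor Il1a was called between these groups. Il1f5 per read of Il1f6, Il1f8 and Il1f9 together was 1.66 ± 0.243 in KO UVB and 2.78 ± 0.594 in KO control, and 2.13 ± 0.227 in WT UVB and 2.90 ± 0.316 in WT control libraries (SD, n = 4 each). It was lower after UVB than in control libraries of the same genotype without overlap, and KO UVB overlapped WT UVB.

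The make-up of the IL-36 agonist reads also differed. Il1f6 made up 25.5 ± 3.08% of them in KO UVB and 6.29 ± 4.10% in KO control, and 19.0 ± 3.11% in WT UVB and 3.60 ± 1.71% in WT control libraries. Il1f9 made up 36.5 ± 4.59% in KO UVB and 72.8 ± 8.33% in KO control, and 42.0 ± 5.51% in WT UVB and 69.5 ± 4.56% in WT control libraries. Il1f8 was at 38.0 ± 2.71% in KO UVB, 20.9 ± 4.20% in KO control, 38.9 ± 2.86% in WT UVB and 26.9 ± 3.22% in WT control libraries. Il1f9 thus gave the most agonist reads in control skin of both genotypes, and Il1f8 and Il1f9 reads were close in UVB skin. These shares are not scaled for exon length, which is 0.883, 1.22 and 1.65 kilobases for Il1f6, Il1f8 and Il1f9. Per kilobase Il1f9 also led the agonists in control skin. In UVB skin Il1f8 was then above Il1f9, at 58.5 against 41.4 CPM per kilobase in KO UVB and 44.7 against 34.8 in WT UVB, with overlap of libraries.

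**Figure D4:**
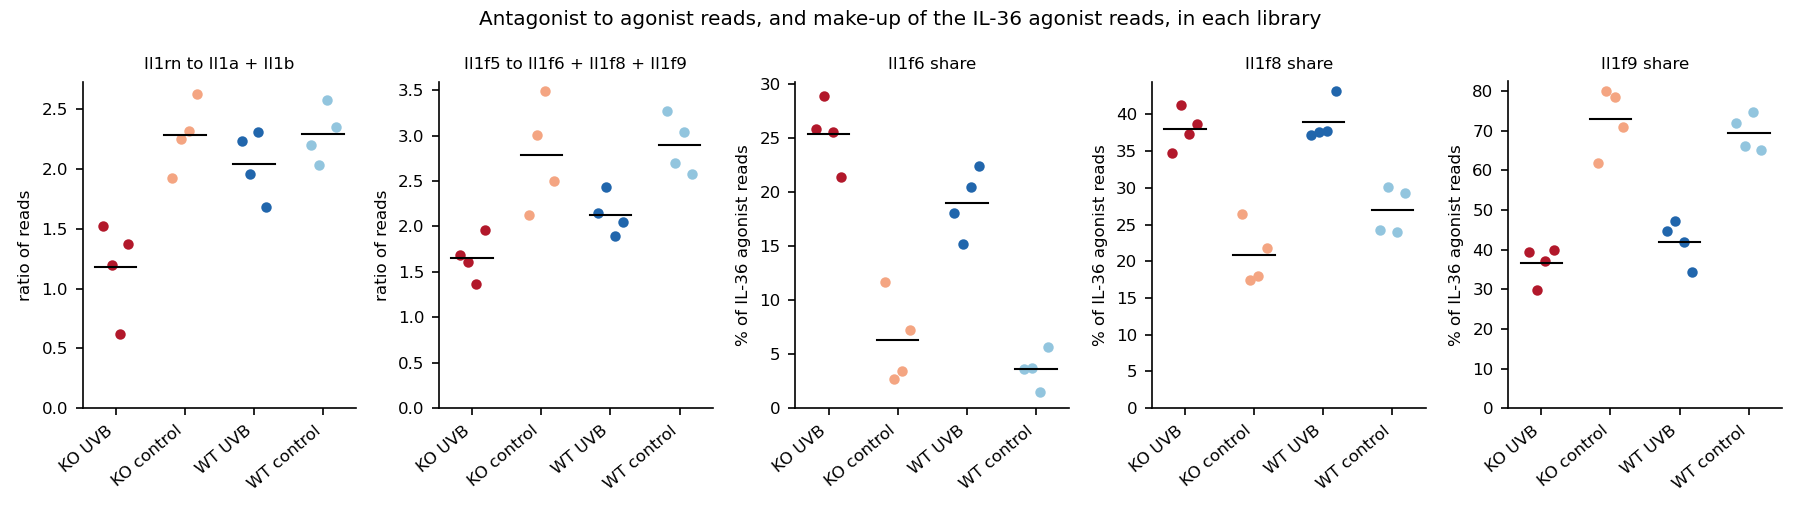
Ratios of Il1rn reads to Il1a plus Il1b reads and of Il1f5 reads to IL-36 agonist reads, and the shares (%) of Il1f6, Il1f8 and Il1f9 among the agonist reads, with a point for each library, a line at the group mean, and groups KO UVB, KO control, WT UVB and WT control from left to right. The KO UVB points of the Il1rn ratio, 0.618 to 1.52, lie below all other points, and the Il1f6 share is higher in UVB than in control libraries. Reads are not scaled for exon length.

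To compare levels between genes, CPM were divided by the exon length in kilobases of each gene in a GENCODE annotation of GRCm38. This length joins all annotated exons of a gene, and the transcripts present in this skin may be shorter. The order of genes therefore depends on this choice of length. In CPM not divided by length, the mean of Il1f5 was above that of Il18 in every group. On this scale Il18 was the highest member in every group, at 77.1 ± 3.97 CPM per kilobase in KO UVB, 32.6 ± 8.00 in KO control, 67.0 ± 8.58 in WT UVB and 31.5 ± 5.34 in WT control skin. In UVB skin the next 4 were the IL-36 genes, from 68.3 ± 20.6 (Il1f5) to 41.4 ± 13.4 (Il1f9) in KO UVB and from 64.8 ± 9.13 (Il1f5) to 30.6 ± 10.9 (Il1f6) in WT UVB, and neighbours from Il18 down to the last of these overlapped in their libraries. In KO UVB skin every neighbour in the order overlapped. In WT UVB skin Il1f6 stood clear of Il1rl2 (14.4 ± 1.72), Il1rl2 of Il1a (10.7 ± 1.57), and Il33 (9.52 ± 0.800) of Il1b (2.92 ± 1.12), the lowest. In KO control skin the order began with Il18, Il1f5 (15.7 ± 2.23) and Il1rl2 (15.7 ± 1.07), of which the first stood clear, and ended with Il1f6 (2.23 ± 2.08) and Il1b (1.47 ± 0.715), which overlapped. In WT control skin it began with Il18, Il1rl2 (13.8 ± 0.503) and Il1f5 (12.6 ± 2.44) and ended with Il1b (0.951 ± 0.217) and Il1f6 (0.837 ± 0.584), which overlapped.

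Receptors and soluble regulators of the family were counted in the same way. Of 10 listed 9 were tested, and edgeR called 0 of them higher in any comparison. Over all genes 17.2% were called higher after UVB in KO and 10.2% in WT skin, so that 0 of 9 is not far from those shares. EdgeR also called 0 between genotypes. Of the 9, 1 had an unadjusted p under 0.05 with UVB, as 16.3% of all genes did, and DESeq2 and limma voom called 0. After UVB 3 were called lower in KO and 2 in WT skin, where 2655 and 1508 of the 17531 genes tested were. Il18r1, which encodes the ligand-binding chain of the IL-18 receptor, had 4.68, 4.34, 9.83 and 10.1 CPM in KO UVB against 8.75, 20.9, 17.4 and 21.3 CPM in KO control, and 9.27, 7.78, 8.87 and 8.56 CPM in WT UVB against 19.4, 15.1, 19.7 and 20.4 CPM in WT control libraries. It fell by 1.23 ± 0.29 in KO (adjusted p = 0.00448) and by 1.11 ± 0.28 in WT skin (adjusted p = 0.0129, edgeR), the reverse of Il18. Of 6 T cell markers 4 were called lower after UVB in each genotype, with sums of 12.6 to 36.3 CPM in KO UVB and 40.5 to 61.2 in KO control, and 20.1 to 33.3 in WT UVB and 41.7 to 70.5 in WT control libraries, and their part in the receptor values was not tested. Il1r2, the decoy receptor that binds IL-1 without signalling, averaged 58.0 ± 13.4 CPM in KO UVB and 78.2 ± 7.03 in KO control, and 50.7 ± 2.32 in WT UVB and 82.9 ± 13.2 in WT control skin. Its change was -0.71 ± 0.14 in WT (adjusted p = 0.00271) and -0.43 ± 0.14 in KO skin (adjusted p = 0.0280), and the call in KO skin ended without KO control 3 or 4 or KO UVB 1, 2 or 3 (adjusted p from 0.0504 to 0.0756). Il1f10, which encodes IL-38, was called lower in KO skin alone (-1.06 ± 0.31, adjusted p = 0.0171), and this call ended without KO control 4, KO UVB 2 or KO UVB 3 (adjusted p from 0.0515 to 0.0589). The KO count was then 1, Il18r1, without KO control 4, KO UVB 2 or KO UVB 3. Il1r1, the signalling IL-1 receptor, changed by -0.09 ± 0.14 in KO (adjusted p = 0.652) and -0.37 ± 0.14 in WT skin (adjusted p = 0.0799), and Il1rap, the shared accessory chain, by -0.08 ± 0.12 in KO (adjusted p = 0.621) and -0.03 ± 0.12 in WT skin (adjusted p = 0.891).

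Of 14 genes that carry the signal below these receptors, all tested, 3 were called higher in KO and 4 in WT skin after UVB and none lower, where 17.2% of all genes in KO and 10.2% in WT skin were called higher. Traf6, the ubiquitin ligase of the pathway, was called in both, at 0.38 ± 0.12 in KO (adjusted p = 0.0201) and 0.64 ± 0.12 in WT skin (adjusted p = 0.00132). The call in KO skin ended without KO control 1 (adjusted p = 0.0578) or KO UVB 1 (adjusted p = 0.0736). The adaptor gene Myd88 (0.51 ± 0.13, adjusted p = 0.00751) and the kinase gene Irak4 (0.37 ± 0.10, adjusted p = 0.00830) were called in KO skin, and the kinase gene Irak2 in WT skin (0.34 ± 0.09, adjusted p = 0.0153). The count in WT skin was 2, Traf6 and Irak2, without WT control 2, WT UVB 2 or WT UVB 4. Irak2 gave 0.22 ± 0.09 in KO skin (adjusted p = 0.0667) and was called there without KO control 4 (adjusted p = 0.0414) or KO UVB 2 (adjusted p = 0.0399). Between KO and WT skin with UVB edgeR called 0 of the 14, limma voom 1 (Irak4) and DESeq2 0, and 5 had an unadjusted p under 0.05. In this comparison limma voom called 6.24% of all genes and DESeq2 3.75%, and 16.3% had such a p. In the interaction all 3 tools called 0, and 3 had an unadjusted p under 0.05, as 12.8% of all genes did.

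Of 22 listed inflammasome genes and proteases that cut or inactivate these cytokines 20 were tested, and 4 were called higher in KO and 2 in WT skin after UVB, none lower. Both counts are near the shares of all genes called higher, 17.2% in KO and 10.2% in WT skin. Pycard, the inflammasome adaptor ASC, had 135, 110, 104 and 106 CPM in KO UVB against 64.5, 57.9, 61.4 and 81.6 CPM in KO control, and 87.7, 96.7, 103 and 107 CPM in WT UVB against 61.6, 66.1, 61.8 and 62.9 CPM in WT control libraries. The groups did not overlap, and Pycard rose by 0.78 ± 0.11 in KO (adjusted p = 0.000139) and by 0.64 ± 0.11 in WT skin (adjusted p = 0.000743, edgeR). Nlrp10, a member of the NLR family expressed in epidermis, rose by 0.47 ± 0.17 in KO (adjusted p = 0.0411) and by 0.85 ± 0.17 in WT skin (adjusted p = 0.00257), and its call in KO skin ended without KO control 1 or 2 or KO UVB 1 or 2 (adjusted p from 0.0513 to 0.146). Casp1, whose product cuts the IL-1β and IL-18 precursors, gave 0.36 ± 0.15 in KO (adjusted p = 0.0786) and -0.03 ± 0.15 in WT skin (adjusted p = 0.924). The KO count was 7 higher without KO control 1, 2 higher without KO control 2, and 2 higher and 1 lower without KO UVB 3 and 4. Between KO and WT skin with UVB edgeR called 0 of the 20, DESeq2 3 and limma voom 4, and 7 had an unadjusted p under 0.05. In this comparison DESeq2 called 3.75% of all genes and limma voom 6.24%, and 16.3% had such a p.

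Genes known to be induced by IL-1 or IL-36 were counted beside the ligands. Whether IL-1, IL-36 or another signal changed these genes here was not tested. Of 28 listed 19 were tested, and 11 were called higher and 1 lower after UVB in KO skin, against 2 higher and 1 lower in WT skin. Over all genes 17.2% were called higher in KO and 10.2% in WT skin, and the WT count is near that share. Their median log2 fold change was 1.54 in KO and 0.25 in WT skin, beside -0.02 and -0.03 over all genes. Without KO UVB 3 the KO count was 6 higher and 3 lower with a median of 0.80, and without KO UVB 3 and 4 it was 6 higher and 4 lower with a median of 0.45. In the WT count, the gene called lower was Mmp9, which encodes a matrix-degrading protease, and its call ended without any 1 library of the WT groups other than WT UVB 1. In the interaction edgeR called 0 of the 19, DESeq2 1 and limma voom 2, and 5 had an unadjusted p under 0.05. There DESeq2 called 1.21% of all genes and limma voom 2.50%, and 12.8% had such a p. The median interaction was 1.14, and 0.12 without KO UVB 3.

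The 11 genes called higher in KO skin were the chemokine genes Ccl2, Ccl20 and Cxcl1, the cytokine gene Il6, the prostaglandin synthase gene Ptgs2, and the antimicrobial or acute-phase genes S100a8, S100a9, Lcn2, Camp, Saa3 and Defb14. Without KO UVB 3 those still called were Ptgs2, Il6, S100a9, Lcn2, Saa3 and Defb14. The gene called lower in KO skin was Nfkbia (-0.50 ± 0.15, adjusted p = 0.0165, edgeR). Tnfaip3 (-0.38 ± 0.23), Zc3h12a (0.27 ± 0.19), Nfkbiz (0.24 ± 0.16) and Icam1 (0.23 ± 0.13) were not called there, nor were Il20, Lif and Mmp9. Cxcl1, which attracts neutrophils, had 0.846, 0.571, 14.5 and 0.729 CPM in KO UVB libraries against 0.535, 0.339, 0.373 and 0.499 CPM in KO control libraries, and S100a8, abundant in neutrophils and in stressed keratinocytes, had 6.52, 9.58, 112 and 14.7 CPM in KO UVB libraries against 8.12, 2.20, 1.49 and 12 CPM in KO control libraries. In both, KO UVB 3 was far above the other libraries, as in Il1b. Camp is also on the neutrophil list, and KO UVB 3 did not lead in it. Ptgs2 had 8.46, 6.10, 16 and 3.69 CPM in KO UVB libraries against 1.60, 2.46, 1.81 and 2.94 CPM in KO control libraries, and every UVB library was above every control library. It rose by 1.96 ± 0.39 in KO skin (adjusted p = 0.00193) and gave 0.51 ± 0.40 in WT skin (adjusted p = 0.401, edgeR).

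The genes called higher in both genotypes were Defb14 and Saa3. Defb14, an antimicrobial β-defensin, had 11.3, 13.6, 18.1 and 13.1 CPM in KO UVB against 1.65, 0.381, 0.852 and 2.72 CPM in KO control, and 11, 12.3, 11.8 and 9.06 CPM in WT UVB against 1.39, 3.91, 3.15 and 2.42 CPM in WT control libraries. The UVB libraries were apart from the controls, with changes of 3.35 ± 0.41 in KO (adjusted p = 6.11e-05) and 2.04 ± 0.38 in WT skin (adjusted p = 0.00173, edgeR). Saa3, an acute-phase serum amyloid A, had 137, 115, 35.9 and 9.38 CPM in KO UVB against 8.41, 0.0424, 0.266 and 6.88 CPM in KO control, and 18.3, 30.5, 47.4 and 67.2 CPM in WT UVB against 0.670, 0.620, 0.262 and 0.851 CPM in WT control libraries. KO UVB 4 was close to the highest KO control library, and the WT groups were far apart. Saa3 rose by 4.27 ± 0.95 in KO (adjusted p = 0.00364) and by 6.08 ± 1.15 in WT skin (adjusted p = 0.00227, edgeR). The Saa3 change in KO skin ran from 3.81 to 7.27 over the alternatives, the highest with limma voom, and was called in each.

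Lcn2, an iron-scavenging antibacterial protein of epithelia and neutrophils, was the only gene of the pathway lists that edgeR called between genotypes with UVB, and edgeR called 0 of them without UVB. Of the 19 induced genes 10 had an unadjusted p under 0.05 with UVB, DESeq2 called 4 and limma voom 2. Over all genes these were 16.3%, 3.75% and 6.24%. Without UVB 4 had such a p, DESeq2 called 1 and limma voom 0. Over all genes these were 10.9%, 2.58% and 3.37%. Lcn2 had 17.6, 17.3, 20.3 and 6.24 CPM in KO UVB against 4.75, 5.22, 7.12 and 4.83 CPM in WT UVB libraries. It had 4.42, 5.42, 3.09 and 3.99 CPM in KO control against 4.29, 4.77, 3.63 and 7.08 CPM in WT control libraries. KO UVB libraries 1 to 3 were above all others and KO UVB 4 lay within the WT UVB range. The difference with UVB was 1.48 ± 0.30 (adjusted p = 0.0315, edgeR), and the call ended without WT UVB 1, 2 or 4 or KO UVB 2 or 3 (adjusted p from 0.0845 to 0.111). The adjusted p ran from 0.000356 to 0.114 over 18 alternatives. Its interaction was 1.70 ± 0.44 and not called by edgeR (adjusted p = 0.164). It was called by DESeq2 (1.71 ± 0.45, adjusted p = 0.0172), by limma voom (2.00 ± 0.41, adjusted p = 0.0266), and by edgeR without KO UVB 4 (1.96 ± 0.30, adjusted p = 0.0163) and without KO UVB 3 and 4 (1.89 ± 0.33, adjusted p = 0.0263).

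**Figure D5:**
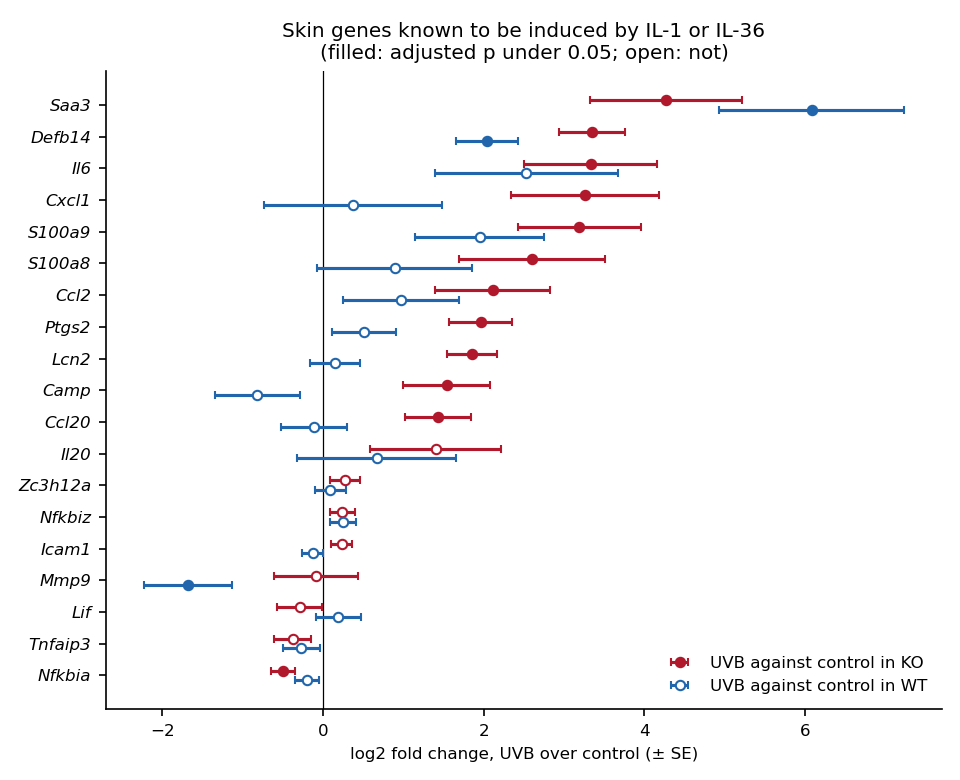
Log2 fold changes ± SE, UVB over control, of the 19 tested skin genes known to be induced by IL-1 or IL-36, in KO (upper point of each pair) and WT skin (lower point), with filled points where the adjusted p was under 0.05. Saa3 and Defb14 are filled for both genotypes, and 11 genes are filled to the right of 0 in KO skin against 2 in WT skin.

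The genes beside the members on chromosome 2 were taken by position alone, 5 with a symbol on each side of the cluster that runs from Il1f8 to Il1rn and 5 on each side of Il1a and Il1b, which lie apart from it. Of the neighbours of the cluster 5 were tested and none was called higher after UVB in either genotype. Over all genes 17.2% were called higher in KO and 10.2% in WT skin, so that 0 of 5 is not far from those shares. Hnmt, which encodes a histamine-inactivating enzyme, was lower in WT skin (-0.70 ± 0.23, adjusted p = 0.0465) and gave -0.33 ± 0.23 in KO skin (adjusted p = 0.304). The WT call ended without WT control 1, 2 or 4 or WT UVB 2, 3 or 4 (adjusted p from 0.0777 to 0.122), and without KO UVB 4 Hnmt was called lower in KO skin (-0.67 ± 0.17, adjusted p = 0.00744). Spopl was lower in KO skin (-0.19 ± 0.07, adjusted p = 0.0466), and this call ended without KO control 2, 3 or 4 or KO UVB 1, 2 or 4 (adjusted p from 0.0636 to 0.136). Of the neighbours of Il1a and Il1b 9 were tested, and 2 were called higher and 1 lower in KO skin, and 3 higher and 1 lower in WT skin. Counts this small do not tell these neighbours from other genes at the shares given above. Tgm3, an epidermal transglutaminase, rose by 3.00 ± 0.31 in KO (adjusted p = 2.26e-05) and by 1.81 ± 0.29 in WT skin (adjusted p = 0.000625), and F830045P16Rik fell by 4.03 ± 0.50 in KO (adjusted p = 6.51e-05) and by 3.42 ± 0.48 in WT skin (adjusted p = 0.000204, edgeR).

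The genes most like 4 of the members were found by Pearson's r of log2 CPM over the 16 libraries, which share their treatment groups and their scaling, and r is given as a description with no p. For Il1f5 they were Asprv1 (0.996), Casp14 (0.995) and Calm4 (0.994), and the r of deviations from the group means was 0.92 to 0.98. For Il1f6 they were Lce6a (0.992), Stfa3 (0.992) and Lce1e (0.986). For Il1f8 they were Calm4 (0.992), Stfa3 (0.992) and Lce1j (0.990). The genes most like Il33 reached lower values, such as Has3 (0.929) and Zfand2a (0.928), with an r of deviations of 0.84 for Has3 and 0.94 for Zfand2a.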

How the data were processed

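Per the labels' protocols, total RNA of dorsal skin was extracted with Trizol, poly(A)-enriched and made into directional libraries with a NEBNext Ultra II kit. The authors aligned reads to GRCm39 with STAR, per the submitters' processing notes, with a version and annotation that no source here gives. The deposited values are raw read counts per gene in 3 columns (unstranded and each strand). Reverse-strand counts were used, since they held 94.75 to 96.09% of the stranded reads. Summary lines of unmapped (10.67 to 19.5% of reads), no-feature (7.25 to 10.23%) and ambiguous reads (1.18 to 1.42%) stayed out of library sizes. A combined table has 17 value columns that no header ties to samples, and these were not used. Symbols came from a GENCODE annotation of GRCm38 by gene ID (52083 of 55359 IDs), which also gave exon lengths and gene order.

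Counts were fitted with edgeR 4.0.16 in R 4.3.3 (quasi-likelihood, robust, TMM factors 0.94 to 1.07, filterByExpr) as 1 model of the 4 groups with 5 contrasts. Benjamini-Hochberg adjustment ran over all 17531 genes tested, which held 99.9% of reads in genes. A log2 fold change is that of the fit, and its SE is implied by the test. The common biological coefficient of variation was 0.18. On simulated counts for UVB against control in WT skin (17290 genes), 91% of 200 changed genes were recovered with 8 false calls. The changed genes had a mean count of at least 50 and went up or down 2-fold or 4-fold, and no outlying library was simulated. The 91% therefore does not cover lower counts, smaller changes or the genotype comparisons. All 24 pairs of libraries within groups differed by more than sampling noise (chi-square over its degrees of freedom 13.6 to 143). Log2 CPM for likeness have a prior count of 2, over genes with a mean count of at least 50.

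Alternatives were DESeq2 1.42.0, limma 3.58.1 voom with sample quality weights, other size factors, other filters, unstranded counts, a replicate block, fits of the 2 groups compared, and leaving out libraries. The members, lists, markers and tests were chosen with earlier results of these data known. Named genes are all members, and of each list the 2 with the smallest adjusted p in each UVB contrast and any called between genotypes; Il1r1, Il1rap, Casp1 and the induced genes other than Defb14, Saa3 and Lcn2 were named after their values were seen, as was the second neighbour list, since Il1a and Il1b lie apart from the other members on chromosome 2. Ehmt1, named by the rule as a neighbour, was not called in any comparison. Leaving libraries out of the lists was chosen after seeing the data. A few genes that these rules name are not reported here.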

Additional observations from a re-analysis of the deposited data

Results flagged for a closer look

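In 3 of the 40 groups of 4 libraries examined (10 members in 4 groups), a single library lay farther from the rest than the gap test allows at the 95% level, and chance gives about 1 in 20 groups. Il1b was at 78.2 CPM in library KO UVB 3, against 3.38 to 8.79 CPM in the other 3 KO UVB libraries. Il1rn was at 68.9 CPM in library WT UVB 3, against 49.1 to 50.1 CPM in the others of its group. Il1rl2 was at 99.0 CPM in library WT control 1, against 91.9 to 92.4 CPM in the others.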

How the results depend on the processing

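Over 950 comparisons of a member's change with an alternative, 942 kept the direction of any call and their side of the threshold, and none of the called changes turned its sign. The count of called members for UVB against control stayed at 8 to 9 in KO and 7 to 8 in WT skin. For KO against WT skin with UVB it was 0 in the edgeR fit, 1 with DESeq2, 2 with limma voom with sample quality weights, and 0 to 1 when a library was left out. For KO against WT skin without UVB and for the interaction it was 0 under every alternative run. The calls that changed were those of Il1b, Il1f6 and Il33 given above, and the cause was not tested. With scaling by library totals the median log2 fold change of all genes after UVB was -0.091 in KO and -0.118 in WT skin, beside -0.016 in KO and -0.027 in WT skin in the edgeR fit. Replicate numbers did not pair the libraries (r of same-numbered deviations -0.403 to 0.219 over 24 pairs, 3 of them over 0.1), and with the replicate block 9 members were called in KO and 7 in WT skin after UVB, and 0 in the other comparisons. Over all genes, calls for KO against WT with UVB numbered 150 in the edgeR fit, 658 with DESeq2, 1094 with limma voom and 77 with the replicate block. Precision is limited by 4 libraries a group, and for Il1f6 in control skin by 7 to 92 reads per library.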
